A study of Homo sapiens with 3 samples.

Results

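Imiquimod (IMQ)-stimulated THP-1 macrophages were set against untreated ones, gene by gene, on 2 of the 3 one-color arrays of the series, the Ctrl array and the IMQ array. THP-1 is a human monocytic leukemia line. All cells had first been turned into adherent, macrophage-like cells with the phorbol ester PMA (100 ng/mL) and then rested overnight in fresh medium, so the untreated control carries the PMA step too. The Ctrl cells received nothing further, the IMQ cells received IMQ, and the cells of the third array, which the labels call IMQ+X, received IMQ and a further agent that the labels do not spell out. It was read here as DMD, the sole other compound that the series text names, which is not certain. The labels give 4 h for every array, whereas the methods of the study name a longer exposure for its THP-1 experiments in general. Each condition is 1 array, all 3 on 1 slide, hybridized with Cy3-labeled copies of the cells' RNA.

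The quantity reported is the quantile-normalized fluorescence intensity of a probe of 60 bases (for brevity, its intensity) and its log2 difference, IMQ minus Ctrl, which stands in parentheses after the intensities of a gene. Where several probes stood for a gene, the brightest one on the log2 scale was taken, and the gene was compared where the scanner marked that probe well above background on the brighter of both arrays. Of 43317 gene names on the array, 31851 were compared, and of 23532 with a current gene symbol, 19766 were. Where the dimmer array was not well above background, the lowest intensity that was (16.5 for Ctrl, 23.8 for IMQ) or the probe's own higher value took its place, and the fold is then written as "at least". A single array per condition leaves no replicate error, so no test was run and a 2-fold difference is a mark for description only. Probes printed 10 times give the spread between spots of the same array. Its median SD was 0.53 on the log2 scale for spots at log2 intensities of 3 to 5, 0.26 at 5 to 7, 0.08 at 7 to 9 and 0.05 at 9 to 11. This spread leaves out differences between cultures.

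IMQ is a small imidazoquinoline that binds toll-like receptor 7, an endosomal receptor for single-stranded RNA. The receptor signals through the adaptor MyD88 and IRAK kinases to the NF-κB transcription factors and the MAP kinases, which switch on inflammatory genes together with their own inhibitors. IMQ also acts on other targets, among them adenosine receptors. Macrophages that are activated in this way are known to slow their cell cycle, remodel lipid and amino acid metabolism, and exchange one set of surface receptors for another.

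The cells carried the markers of their line. Of 12 macrophage and monocyte markers, 10 were read, and all 10 were well above background on both arrays, with CSF1R at 224896, 172912 and 153691 and TYROBP at 237219, 223150.0 and 227349 (here and below, 3 intensities in a row follow the order Ctrl, IMQ, IMQ+X). Their summed intensity was 688614 on the Ctrl array and 566185 on the IMQ array, and 1 of them, CYBB, was at least 2-fold lower. CD68 and LYZ were not analysed here. The summed intensity of 11 T and NK cell markers was 9738 and 10293, of 8 B cell markers 6907 and 5739, of 10 keratinocyte and epithelial markers 19988 and 18737, and of 10 fibroblast and endothelial markers 1065 and 1338. Single genes made up most of the larger sums, namely GNLY (7290.3, 8298 and 8418), CD79A (4148, 3424 and 4011) and KRT10 (18750.2, 17724 and 18069). KLRD1, BLK, EPCAM, CDH1, TP63, DSG3, COL1A2, COL3A1 and LUM were not well above background on either array. None of the markers of other cell types differed 2-fold except CLDN5, described below.

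On the IMQ array, 1329 genes (4.17% of those compared) were at least 2-fold higher than on the Ctrl array and 1143 (3.59%) at least 2-fold lower. Among genes with a symbol, the counts were 850 (4.3%) and 911 (4.61%). At 4-fold, the higher genes outnumbered the lower ones, 289 (0.907%) against 112 (0.352%), or 222 (1.12%) against 93 (0.471%) among those with a symbol. All of these differences are relative to the middle of the arrays, which quantile normalization sets equal. The median log2 difference of all genes was -0.02 as normalized, -0.51 without normalization and -0.66 with scaling to spike-in RNA, so a difference smaller than these shifts has no direction of its own outside the normalized scale. Genes read from protein-coding RefSeq transcripts were lower more often (820 of 15886, 5.16%) than higher (708, 4.46%). In a catalog of long intergenic RNAs 217 of 5746 (3.78%) were higher and 107 (1.86%) lower. Intensity was not held equal here. At log2 intensities of 4 to 6 on the brighter array, 4.83% of all genes compared were higher and 1.65% lower. At 10 to 12 the shares were 4.19% and 5.43%. Whether the contrast goes with transcript class or with intensity was not tested. The second probes of a gene gave a check within the arrays. For the higher genes with a symbol that had another compared probe, 264 of 295 such probes (89.5%) lay on the same side and 156 (52.9%) were themselves at least 2-fold higher, against 4.74% of the other probes of all genes. For the lower genes, the same counts were 257 of 289 (88.9%) and 95 (32.9%), against 3.17%.

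**Figure D1:**
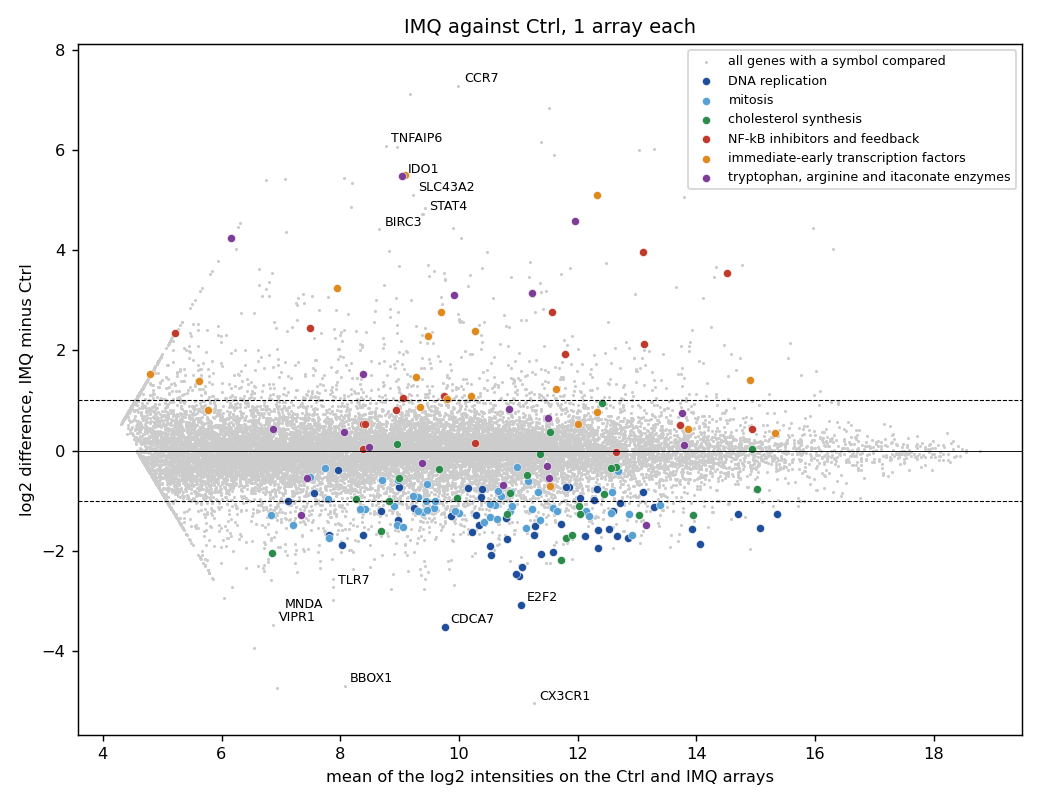
Log2 difference (IMQ minus Ctrl) against the mean log2 intensity of both arrays for the genes with a symbol that were compared, 1 point per gene. Colored points are members of 6 gene lists and dashed lines mark 2-fold. The DNA replication and mitosis members all lie below 0, the NF-κB inhibitor and immediate-early members lie mostly above 0, and the diagonal edges on the left are bounds set by background.

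The gene lists that follow hold textbook pathways and families, and the cytokines and chemokines themselves are left aside. Across 47 lists, 1 of them housekeeping genes, the medians ran from -1.49 for DNA replication to 1.31 for the immediate-early transcription factors, against -0.03 for all genes with a symbol.

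**Figure D2:**
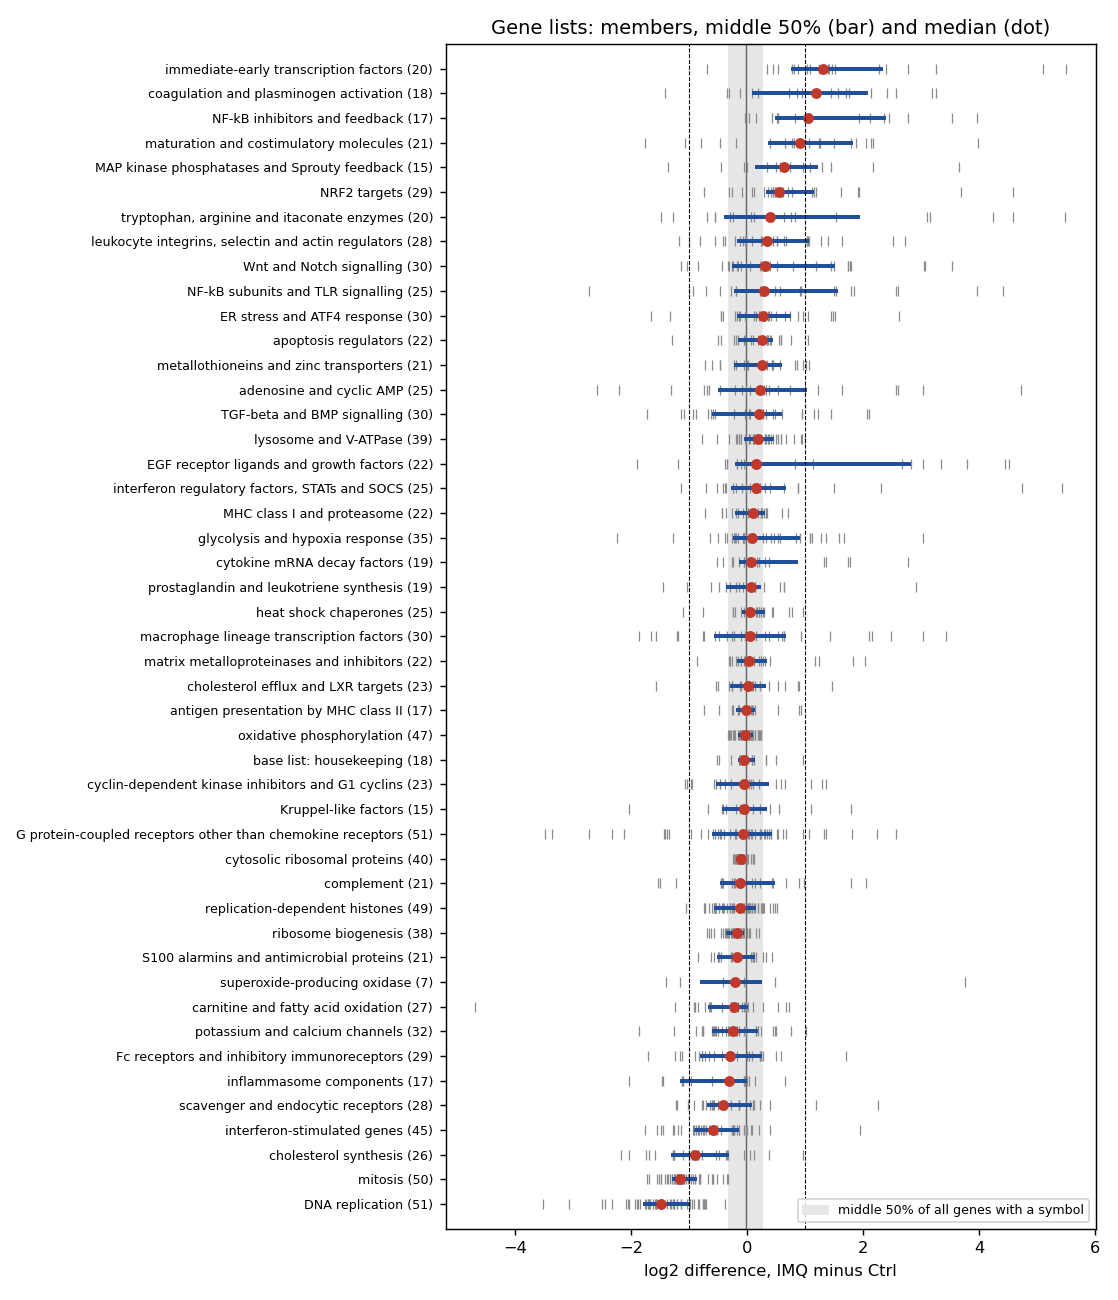
Log2 difference (IMQ minus Ctrl) of the members of each gene list, 1 tick per gene, with the middle 50% as a bar, the median as a dot and the number compared in brackets. The gray band is the middle 50% of all genes with a symbol. DNA replication, mitosis and cholesterol synthesis stand at the low end and the immediate-early, coagulation and NF-κB inhibitor lists at the high end.

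The lowest list was the machinery that copies DNA. Every one of the 51 replication genes compared had a lower intensity on the IMQ array, 39 of them at least 2-fold, and the median log2 difference was -1.49. The replicative helicase, which unwinds the double strand, was at least 2-fold lower in most of its subunits. Its ring subunits MCM2 to MCM7 differed by -1.59, -1.85, -2.06, -1.70, -1.75 and -1.55. MCM4 was the lowest of the ring, at 5436 on Ctrl, 1305 on IMQ and 1395 on IMQ+X. GINS2, which joins the ring to CDC45, gave intensities of 4888, 863 and 839, a difference of -2.50 (SD between spots 0.07). Of the other GINS subunits, GINS1 differed by -1.50, while GINS3 (-0.72) and GINS4 (-0.73) did not reach 2-fold. CDC45 itself stood at 10191, 2662 and 2687. The licensing factor CDT1, which loads the ring onto origins, gave 6203, 1516 and 1470.4, a difference of -2.03. Both IMQ-treated arrays lay below the Ctrl array for each of these genes.

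Factors that act at the fork and enzymes that supply nucleotides were lower as well. PCNA, the sliding clamp, had intensities of 8056, 2472 and 2459 and a second PCNA probe differed by -1.65. The primase subunit PRIM1 differed by -1.90, the polymerase subunits POLA1, POLA2, POLD1 and POLE2 by -1.29, -1.31, -1.47 and -1.38. TYMS, which makes thymidylate, differed by -1.57, TK1, which salvages thymidine, by -1.26 and RRM1, the large ribonucleotide reductase subunit, by -1.13. RRM2, the small subunit of the same enzyme, differed by -0.74 and did not reach 2-fold. Regulators of the cycle stood among the lowest. E2F2, a transcription factor of the G1 to S transition, stood at 6133 on Ctrl, 727 on IMQ and 628 on IMQ+X, 8.44-fold lower with IMQ. E2F1 differed by -1.63, E2F8 by -1.88, and cyclin E2 (CCNE2) by -2.08. UHRF1, which carries DNA methylation through replication, gave 4788, 951 and 839, and DTL, an adaptor that has CDT1 destroyed, gave 4689, 854 and 819.7. CDCA7 had the lowest difference of the list, -3.51, but its second probe differed by only -0.49, so its size depends on the probe. CLSPN, a checkpoint mediator, was the least different member at -0.39.

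**Figure D3:**
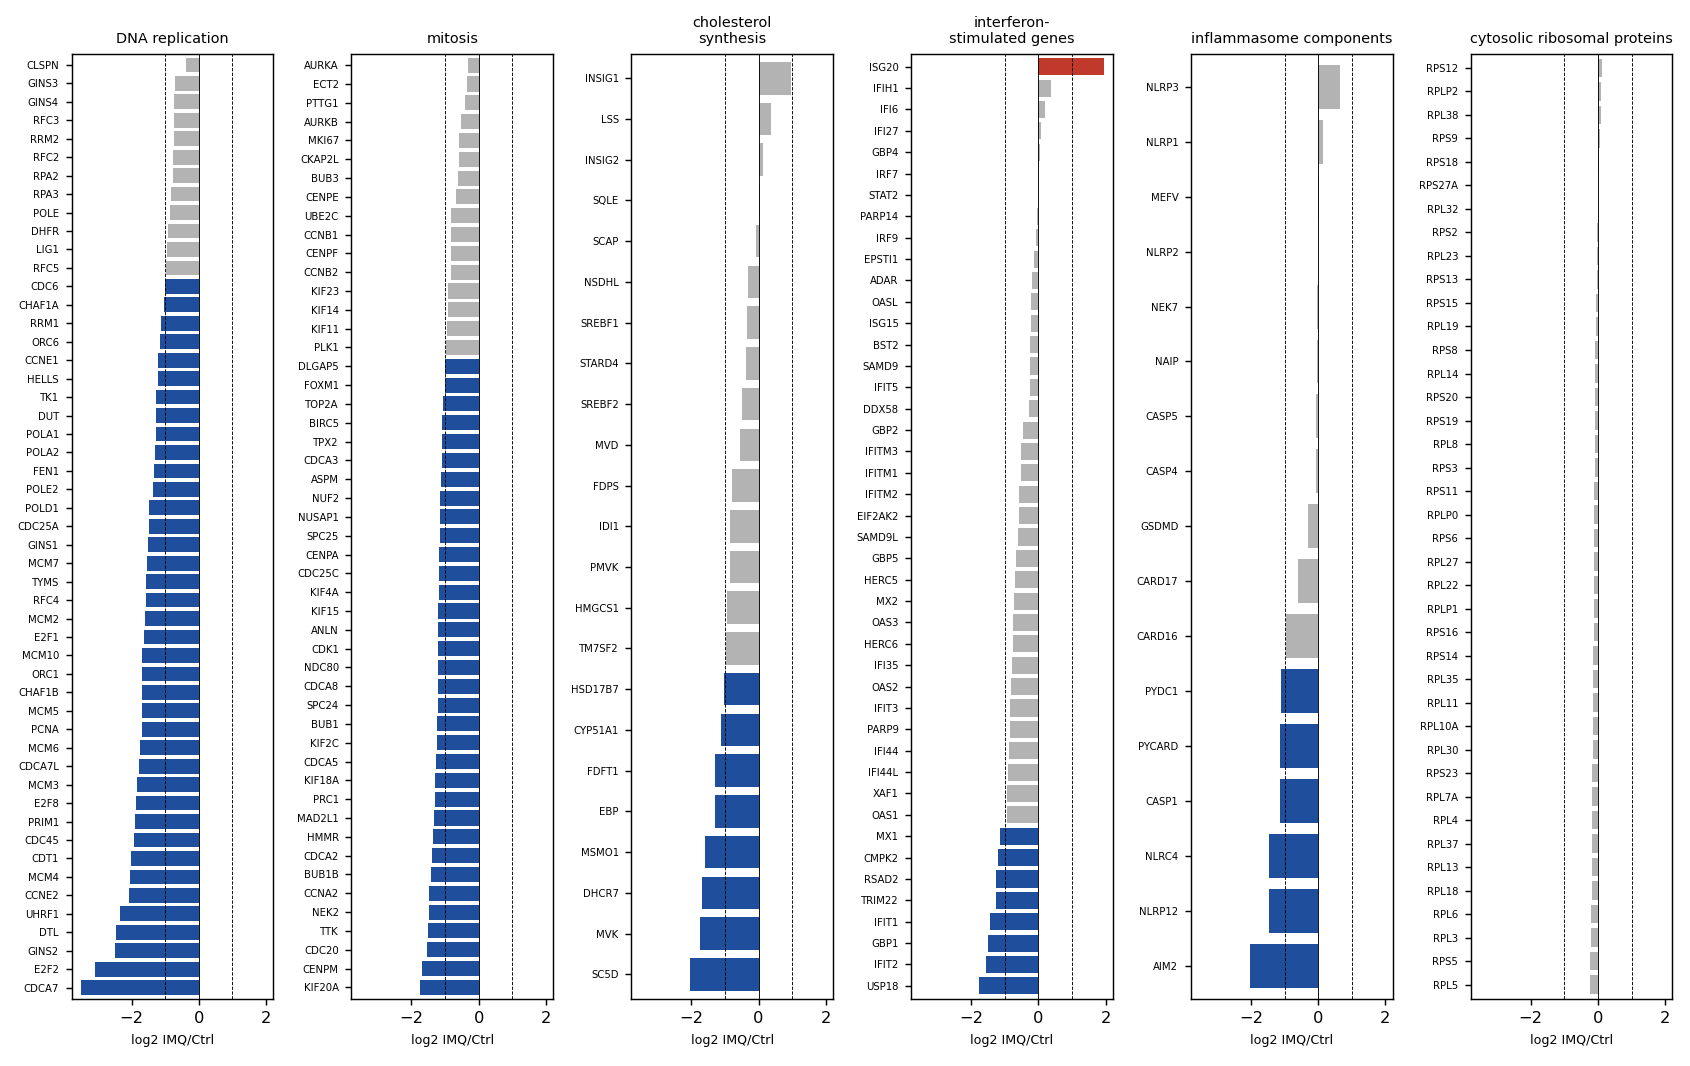
Log2 difference (IMQ over Ctrl) of the members shown of 6 lists, 1 bar per gene, sorted within each list, with 2-fold marked by dashed lines, blue for at least 2-fold lower and red for at least 2-fold higher. The bars of the replication and mitosis lists all point down, those of the cholesterol and interferon lists mostly do, and the ribosomal proteins stay near 0.

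Mitotic genes followed the same direction. Each of the 50 compared was lower on the IMQ array, 34 of them at least 2-fold, with a median of -1.16. KIF20A, a motor of cytokinesis, stood at 409, 123 and 90.2 (-1.73). CDC20, the activator that starts anaphase, stood at 3854, 1316 and 1380.1 (-1.55), and the spindle checkpoint kinases TTK and BUB1B differed by -1.52 and -1.42. Cyclin A2 (CCNA2) was lower by more than the B cyclins, with -1.49 against -0.82 for CCNB1 and -0.83 for CCNB2. CDK1, their partner, differed by -1.21. The proliferation marker MKI67 differed by -0.59 on its brightest probe and by -0.98 and -0.96 on its others. The kinases AURKA and AURKB differed by -0.33 and -0.52. All of these were under 2-fold. Among 33 kinesins read by symbol, 9 were at least 2-fold lower and 1 higher, against 4.61% and 4.3% of all genes with a symbol. Some of the lower ones, such as KIF2C and KIF20A, are also members of the mitosis list, so this count partly repeats it. The higher one was KIF3A, a motor of cilia, at 331, 951 and 847 (1.52), with 0.68 on its second probe. KIF17, a motor of dendrites and cilia, was lower too (-1.44), and KIF25 was the lowest of the family (-2.07).

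The genes that hold the cycle back, listed together with the G1 cyclins that drive it, were divided. Of 23 cyclin-dependent kinase inhibitors, growth arrest genes and G1 cyclins, 3 were at least 2-fold higher and 2 lower. CDKN1A, which encodes p21, stood at 986, 2411 and 2794 (1.29), BTG2 at 11579, 29667 and 33676 (1.36) and GADD45B at 2379, 5119.8 and 4132 (1.11). The lower members were CDKN2C (-1.04) and GADD45A (-1.07). MYC, a driver of growth, gave 3767, 2317 and 2011, a difference of -0.70, while its second probe lay on the other side (0.37). Replication-dependent histone genes did not stand as low as the replication list. Their median over 49 genes was -0.12, and only HIST1H2AG (-1.05) was at least 2-fold lower. In bulk RNA, fewer cells in cycle and less of these transcripts per cell cannot be told apart.

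The promoters of these genes hold known cell cycle elements, and stretches of them are printed because the members stood low together. Promoters were taken from RefSeq (GRCh38.p14, 250 bases before to 50 after the gene start, 27305 in all), which matched 43 of the 51 replication genes and 41 of the 50 mitosis genes by symbol. The E2F site was searched on both strands as the word TTCCCGC and as its variants, the words TTCGCGC and also TTGCCGC and finally TTGGCGC, and these words can overlap on opposite strands. It was found in 79.1% of the replication promoters, 36.6% of the mitosis promoters, 24.2% of those of genes at least 2-fold lower, 13.6% of those of genes at least 2-fold higher, 17.4% of those of all genes compared and 13.1% of all promoters. The element of the cell cycle homology region, TTTGAA, was found on either strand in 70.7% of the mitosis promoters and 2.3% of the replication promoters, against 11.7% for all genes compared and 15.4% of all promoters. The CCAAT box (CCAAT, either strand) was in 78.0% of the mitosis promoters and 35.7% of all promoters. Members with and without the site stood at similar levels of difference. The 34 with an E2F site had a median of -1.56 and the 9 without one -1.27, and in the mitosis list the 29 with TTTGAA had -1.16 and the 12 without -1.23. Such matches describe the letters in these windows and show neither binding nor a cause. In the 5 replication promoters below, all upstream of the start, capitals mark the E2F site. GINS2 is at chr16:85688955-85689014 (minus strand), CDT1 at chr16:88803729-88803788 (plus), E2F2 at chr1:23531244-23531303 (minus), PCNA at chr20:5126653-5126712 (minus) and MCM6 at chr2:135876514-135876603 (minus), where 2 pairs of overlapping sites run together.
GINS2: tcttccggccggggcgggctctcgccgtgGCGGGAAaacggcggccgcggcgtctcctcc
CDT1: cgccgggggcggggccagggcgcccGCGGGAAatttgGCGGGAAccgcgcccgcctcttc
E2F2: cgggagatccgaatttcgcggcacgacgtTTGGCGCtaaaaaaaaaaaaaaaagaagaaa
PCNA: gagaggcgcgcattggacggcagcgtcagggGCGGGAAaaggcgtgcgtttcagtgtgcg
MCM6: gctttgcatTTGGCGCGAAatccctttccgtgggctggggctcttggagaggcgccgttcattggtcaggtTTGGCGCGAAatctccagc

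The mitotic promoters below carry TTTGAA in capitals, close to the start. CDC20 is at chr1:43358891-43358950 (plus strand), BUB1B at chr15:40161009-40161068 (plus) and PRC1, which bundles the spindle midzone, at chr15:90994536-90994595 (minus). PRC1 gave intensities of 7327, 2976 and 3081.
CDC20: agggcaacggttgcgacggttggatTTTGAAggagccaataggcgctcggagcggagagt
BUB1B: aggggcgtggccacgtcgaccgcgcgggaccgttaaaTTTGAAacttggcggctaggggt
PRC1: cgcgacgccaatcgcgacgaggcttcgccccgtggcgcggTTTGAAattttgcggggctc

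Cholesterol synthesis was the lowest of the metabolic lists. Of 26 genes of the pathway and its regulation, 11 were at least 2-fold lower, 0 higher, and the median was -0.90. The late steps, which turn lanosterol into cholesterol, were low. SC5D, a sterol desaturase, stood at 235 on Ctrl, 56.9 on IMQ and 54.8 on IMQ+X (-2.04). DHCR7, a sterol reductase, gave 6871, 2128 and 2118 (-1.69), and MSMO1 and EBP differed by -1.60 and -1.29. An early step was lower as well. Mevalonate kinase (MVK) gave 6542, 1951 and 1963 (-1.75). Not every step was low. Squalene epoxidase (SQLE) stood at 30792, 31661 and 30762 (0.04) and lanosterol synthase (LSS) differed by 0.37. INSIG1, which holds the sterol sensor in the endoplasmic reticulum, was on the other side, at 3907, 7568 and 8081 (0.95). The transcription factor SREBF2, which drives the pathway, differed by -0.49, and SREBF1 by -0.35 on one probe and 0.12 on the other.

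Efflux and oxidation of lipids gave isolated differences. ABCA1, which exports cholesterol, gave 2926, 8039 and 8945 (1.46), and CH25H, which makes 25-hydroxycholesterol, differed by -1.58, while the 23 efflux and LXR target genes had a median of 0.01. In carnitine and fatty acid oxidation, 2 of 27 genes were at least 2-fold lower, against 4.61% of all genes with a symbol. Besides BBOX1, which makes carnitine, this was PDK4, a brake on pyruvate oxidation, at 598, 252 and 415 (-1.25).

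Interferon-stimulated genes were lower rather than higher. Of 45 measured, 8 were at least 2-fold lower and 1 higher, and 40 lay below 0, with a median of -0.59. USP18, which removes the ubiquitin-like ISG15, stood at 1430.1 on Ctrl, 424 on IMQ and 363 on IMQ+X. IFIT1, which binds viral RNA and blocks its translation, gave 1614, 591 and 598 (-1.45). Its relative IFIT2 gave 489.6, 166 and 146 (-1.56), and a second IFIT2 probe differed by -1.37. MX1, an antiviral GTPase, gave 5352, 2414 and 2977 (-1.15), and RSAD2, which encodes viperin, gave 769, 320.1 and 348 (-1.26). CMPK2, its neighbor on chromosome 2, gave 1149, 500.3 and 517 (-1.20), but its second probe differed by 0.29. The guanylate-binding proteins GBP1 and GBP3, which coat intracellular microbes, differed by -1.49 and -1.70. GBP2, GBP4 and GBP5 of the 5 family members compared did not reach 2-fold (-0.45, 0.06 and -0.66). ISG20, an exonuclease, was the exception at 2861, 10990.3 and 8960.0 (1.94). ISG15 and IRF7 differed by -0.23 and -0.01. IRF8, a factor of monocyte identity, was lower at 1811, 817 and 568 (-1.15), while IRF4 was at least 4.95-fold higher, from 3.72, 81.7 and 29.1, where the first value was not well above background.

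An interferon response element core (GAAANNGAA, either strand, overlaps allowed) was found in 67.6% of the 34 interferon-stimulated promoters matched, against 6.9% for all genes compared and 8.3% of all promoters. The 23 members with it had a median of -0.52 and the 11 without it -0.76. The core is in capitals in the 4 upstream stretches below, 3 from lower genes and 1 from ISG20, which was higher. They lie at chr10:89392493-89392552 (IFIT1, plus strand), chr2:6865775-6865834 (RSAD2, plus), chr1:89065299-89065358 (GBP1, minus) and chr15:88638916-88638975 (ISG20, plus).
IFIT1: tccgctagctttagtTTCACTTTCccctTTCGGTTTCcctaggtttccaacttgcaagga
RSAD2: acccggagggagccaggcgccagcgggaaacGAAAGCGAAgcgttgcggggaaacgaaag
GBP1: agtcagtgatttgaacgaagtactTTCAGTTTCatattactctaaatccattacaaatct
ISG20: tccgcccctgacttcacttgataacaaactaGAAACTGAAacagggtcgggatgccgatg

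Inflammasome genes, which build the platform that activates caspase-1, were lower in 6 of 17 cases at 2-fold and higher in 0. AIM2, the sensor of cytosolic DNA, stood at 398 on Ctrl, 97.2 on IMQ and 70.7 on IMQ+X, 4.09-fold lower with IMQ. The bacterial sensor adaptor NLRC4 gave 1354, 492 and 407 (-1.46). PYCARD, the shared adaptor, gave 29022, 13263 and 13149 (-1.13). CASP1, the protease itself, gave 4363, 1989.7 and 1953 (-1.13). NLRP3, the best known sensor, lay on the other side at 6067, 9519 and 7709 (0.65), under 2-fold. Next to AIM2 on chromosome 1, IFI16, another DNA sensor of the same family, differed by -1.43, and MNDA, a nuclear antigen of myeloid cells from that family, gave 384, 41.2 and 29 (-3.22).

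Several receptors that sense outside signals were lower, the receptor of IMQ among them. TLR7 stood at 605 on Ctrl, 91.3 on IMQ and 53.8 on IMQ+X, 6.63-fold lower with IMQ (log2 difference -2.73, SD between spots 0.24). Its probe lies at chrX:12908260-12908319 in the hg19 coordinates of the scanner files. Both IMQ-treated arrays were below the Ctrl array. TLR8, its close relative, was near background and lower by at least 2-fold, TLR4, the receptor of lipopolysaccharide, differed by -0.93, and the adaptor MYD88 by -0.47.

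Among 51 G protein-coupled receptors other than those for chemokines, 9 were at least 2-fold lower and 6 higher, while the list median was -0.07 and crossed the all-gene median with normexp background correction. SUCNR1, which senses extracellular succinate, gave 187, 28.2 and 20.7 (-2.73). LPAR5 and S1PR1 bind lysophospholipids. LPAR5 gave 233, 46.2 and 26.1 (-2.34), and S1PR1 was at least 4.34-fold lower. P2RY8, FFAR2, CYSLTR1 and P2RY1 differed by -1.43, -1.41, -1.38 and -1.34, and the other P2RY1 probes by -0.67 and -0.60. Among the higher receptors was HCAR3, a receptor of hydroxy fatty acids, at 111, 525 and 316 (2.24). GPR183, which follows oxysterols, gave 1353, 4715 and 3249 (1.80), and EMR3 was at least 5.94-fold higher. The complement peptide receptor C5AR1 was higher at 3121, 12839.9 and 14434 (2.04). Its neighbor on chromosome 19, C5AR2, was higher at 441, 1530.3 and 1532 (1.79).

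Some endocytic and Fc receptors differed 2-fold, in both directions. Among all genes with a symbol, 4.3% were at least 2-fold higher and 4.61% lower. Of 28 scavenger and endocytic receptors, 3 were at least 2-fold lower and 2 higher, with a median of -0.43. CD163, which clears hemoglobin, gave 11063, 4753 and 5045 (-1.22), VSIG4, a complement receptor, 3424, 1458 and 1481 (-1.23), and TREM2, a lipid receptor, 30462, 15069.5 and 16581 (-1.02). OLR1, which binds oxidized LDL, was higher at 192, 918 and 493 (2.26). Of 29 Fc and inhibitory receptors, 4 were at least 2-fold lower and 1 higher, with a median of -0.29. FCGR1B gave 9713, 2958 and 1945 (-1.72), but it shares sequence with its paralog FCGR1A (-0.73), so their signals may mix. The higher one was FCAR, the receptor of IgA, at 152, 495 and 524 (1.70). The TGF-β receptors TGFBR1, TGFBR2 and TGFBR3 differed by -1.09, -1.14 and -1.73, and a second TGFBR2 probe by -0.51, whereas the pathway's inhibitors BAMBI (876, 3741 and 4506), SKIL (161, 677 and 535) and SMAD7 (1471, 3439 and 3415) were 2-fold or more higher.

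Some of the lowest genes belong to no list. DHRS9, a retinol dehydrogenase, gave 665, 84.1 and 58.1 (-2.98). FYB, an adaptor below immune receptors, gave 1777, 262 and 285 (-2.76). SASH3, another adaptor of lymphoid and myeloid cells, gave 4732, 840.4 and 738 (-2.49), and its second probe differed by -2.62. LOXL4, a lysyl oxidase that cross-links collagen, gave 1552, 278 and 194 (-2.48). The phospholipid flippase ATP10A gave 1673, 284 and 209 (-2.56) and PRR5L gave 1109.5, 200.4 and 118 (-2.47). CCDC170 differed by -2.75 and its second probe by -1.62. For PHACTR3 and LZTS1 the lower value rested on 1 probe. PHACTR3 differed by -2.68 on the brighter probe and 0.01 on the other, and LZTS1 by -2.56 on the brighter probe and -0.10 and 0.34 on the others. Of the genes lost to background with IMQ, MRVI1 was at least 15.3-fold lower (365, 18 and 25.1), LINC00892 at least 7.71-fold, KLRC3 at least 5.9-fold and BLNK, an adaptor first known from B cells, at least 5.41-fold, with -0.68 on its second probe. LCMT1-AS2 was at least 26.5-fold lower on 1 probe, while its other probe differed by 0.38.

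On the higher side stood the inhibitors of NF-κB and part of its signaling components. Of 17 inhibitors and feedback genes, 9 were at least 2-fold higher and 0 lower, with a median of 1.04. BCL3, an atypical IκB, stood at 2238 on Ctrl, 34867 on IMQ and 28074 on IMQ+X, 15.6-fold higher with IMQ. NFKBIA, the IκB that holds NF-κB in the cytoplasm, gave 6863, 79557 and 72142 (3.54). ZC3H12A, an RNase that destroys inflammatory mRNAs, gave 1158, 7898 and 7122 (2.77), and TNFAIP3, which encodes the ubiquitin-editing A20, gave 1805, 6862 and 7453 (1.93). Of the 25 genes of the signaling list, 8 were at least 2-fold higher and 1, TLR7, lower, 8 lay below 0, and the median was 0.29. The kinase IRAK2 gave 361, 5587 and 5139.6 (3.95). BIRC3, a ubiquitin ligase that guards against cell death, gave 87.5, 1869 and 1314 (4.42), and TRAF1 856, 5214 and 4918 (2.61). The subunits REL, RELB and NFKB1 differed by 2.57, 1.84 and 1.54.

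The NF-κB consensus (a motif of 10 letters with degenerate positions, either strand) was found in 16.3% of the 166 promoters of genes at least 4-fold higher, in 10.6% of the 624 of genes at least 2-fold higher and in 5.2% of the 715 of genes at least 2-fold lower, against 6.4% for all genes compared and 5.7% of all promoters. Matches can overlap, as in REL, where a pair on opposite strands forms 1 run. The TATA box (TATAAA, either strand) was in 17.5% of the promoters of genes at least 4-fold higher, against 8.5% for all genes compared. The genes at least 4-fold higher include cytokines and chemokines. Upstream stretches of 4 higher genes are printed with the consensus in capitals. They lie at chr14:35404800-35404859 (NFKBIA, minus strand), chr11:102317274-102317363 (BIRC3, plus, with 2 sites), chr2:60881494-60881553 (REL, plus) and chr5:180353387-180353446 (GFPT2, minus). GFPT2, which opens the hexosamine pathway that supplies sugar for glycoproteins, gave 46.1, 1865 and 1842, 40.4-fold higher with IMQ.
NFKBIA: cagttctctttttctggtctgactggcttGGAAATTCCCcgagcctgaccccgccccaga
BIRC3: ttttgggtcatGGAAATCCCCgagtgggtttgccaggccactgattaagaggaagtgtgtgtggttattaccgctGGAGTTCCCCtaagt
REL: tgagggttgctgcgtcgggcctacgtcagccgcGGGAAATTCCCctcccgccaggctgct
GFPT2: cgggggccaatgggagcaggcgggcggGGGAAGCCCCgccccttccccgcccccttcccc

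Immediate-early transcription factors formed the highest list on the normalized scale (the coagulation list was slightly higher with 75th percentile, spike-in or no scaling), with 13 of 20 at least 2-fold higher, 0 lower and a median of 1.31. IER3, an early response gene, gave 875, 29930.3 and 24024 (5.10), and its second probe differed by 5.18. The orphan nuclear receptors NR4A3 and NR4A2 were both higher, NR4A2 by 3.25 and on its second probe 5.16, and NR4A3 by 1.64 on the dimmer of its probes and 45.1-fold on the brighter. EGR1 gave 323, 1567 and 1111 (2.28). FOSL2, a partner in the AP-1 factor, gave 321, 2176 and 2110.0 (2.76). Of the listed phosphatases that shut off MAP kinases, DUSP1 had the largest difference, at 377, 4722 and 3849 (3.65). DUSP4, DUSP5 and DUSP10 were also at least 2-fold higher, but the others did not reach 2-fold. The brightest of them, DUSP6, differed by -0.01, and DUSP7 by -0.46. SOCS3, an inhibitor of cytokine signaling, gave 40.8, 1759 and 1281 (5.43). STAT4, a factor better known from T cells, gave 131, 3480.1 and 2651 (4.73), with 3.91 on its second probe.

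Lineage transcription factors parted in both directions. CEBPB, a driver of inflammatory gene expression, gave 6151, 50439.8 and 51151 (3.04). BHLHE40, a repressor of activated immune cells, gave 265, 2849 and 2704 (3.43). RUNX3, a factor of hematopoietic lineages, gave 23254, 102865 and 95172 (2.15). These 3 were among 6 of 30 at least 2-fold higher. The 5 lower ones were MYB (3115, 851 and 700.2), ETV5, HHEX, MEF2C and GFI1, with differences from -1.87 to -1.20, and a second MYB probe differed by -0.56. MYB and GFI1 are factors of immature blood cells. SPI1, which encodes the macrophage factor PU.1, differed by 0.04. KLF4, a factor of monocyte differentiation, was lower at 604, 148 and 158 (-2.03).

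Of 20 genes of tryptophan, arginine and itaconate metabolism, 6 were at least 2-fold higher and 2 lower, with a median of 0.39. IDO1, which opens the kynurenine pathway, stood at 78.9 on Ctrl, 3503 on IMQ and 1351 on IMQ+X, 44.4-fold higher with IMQ (SD between spots of the log2 difference 0.23). Its neighbor on chromosome 8, IDO2, was at least 18.9-fold higher (6.79, 312 and 166). KYNU, further along the route to NAD, gave 811, 7165 and 7786 (3.14), while QPRT, close to the end of the same route, was lower at 15215, 5429 and 6344 (-1.49). NAMPT, which salvages nicotinamide into NAD, gave 332, 2839.6 and 2186 (3.10). Amino acid transporters that were higher included SLC7A11, which exchanges cystine for glutamate and feeds glutathione synthesis, at 807, 19362 and 25453 (4.59), and SLC43A2, which carries large neutral amino acids, at 102, 3519 and 2588 (5.11). NOS2, the inducible nitric oxide synthase, was lower at 252, 104 and 86 (-1.28).

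Oxidative stress genes were higher in part. Of 29 targets of NRF2, a transcription factor of the oxidant response, 8 were at least 2-fold higher and 0 lower (median 0.55). The highest after SLC7A11 was SOD2, the mitochondrial superoxide dismutase, at 7749, 100198 and 93784 (3.69). SOD2 is also a known NF-κB target. TXNRD1 and SRXN1 differed by 1.93 and 1.90, HMOX1 by 1.19. In the superoxide-producing oxidase, the catalytic subunit CYBB was lower at 7186, 3229 and 3364 (-1.15) and the cytosolic subunit NCF4 at 7651, 2892 and 3168 (-1.40). NCF1 was higher at 1551, 20864 and 16699 (3.75), with the caution that near-identical copies of NCF1 in the genome may bind its probes.

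The genes of adenosine and cyclic AMP parted in both directions, with 6 of 25 at least 2-fold higher and 3 lower. ADORA2A, the adenosine receptor that raises cyclic AMP, gave 54.3, 446 and 418 (3.04), with 2.08 on its second probe, while ADORA3, which lowers it, gave 279, 46.4 and 29.9 (-2.59). Several of the enzymes that break cyclic AMP down were higher. PDE4B stood at 129, 3406 and 1794, 26.4-fold higher with IMQ. PDE8A stood at 703, 1638 and 1453 (1.22). PDE4A differed by 1.64 on its brightest probe and by 0.32 to 1.33 on its others. PDE4D differed by 2.56 on its brightest probe and by -0.44 to 0.88 on its others. The synthase ADCY7 was lower at 1455, 316 and 244 (-2.20), as was the kinase subunit PRKAR2B (-1.32). CREM, a transcription factor that answers to cyclic AMP, differed by 2.59 on 1 probe and 1.27 on the other. RGS16, which shortens G protein signals, gave 5814, 73204 and 34272 (3.65), and a second probe gave 3.67.

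**Figure D4:**
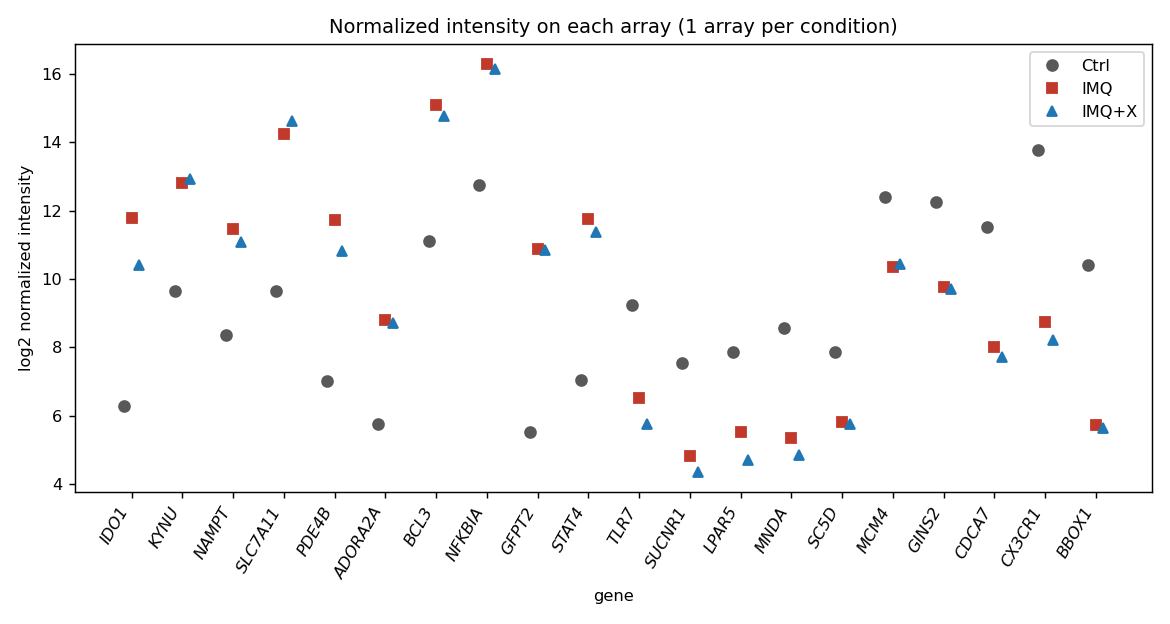
Log2 normalized intensity of 20 named genes on the Ctrl (gray circles), IMQ (red squares) and IMQ+X (blue triangles) arrays, 1 array per condition and therefore without error bars. In all 20 genes both IMQ-treated arrays lie on the same side of the Ctrl array, 10 above it and 10 below it.

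Genes of clot formation and its dissolution were higher in 9 of 18 cases, with a median of 1.19. Urokinase (PLAU) gave 6755, 35709.7 and 27153 (2.40). Its receptor PLAUR gave 8565, 23238 and 21395 (1.44), and tissue plasminogen activator (PLAT) was at least 9.5-fold higher. The inhibitors of these proteases were higher too. SERPINE2 gave 566, 3332 and 3509.6 (2.56), SERPINB2 was at least 4.41-fold higher and TFPI2, a Kunitz-type inhibitor, gave 936, 8508 and 5785 (3.18). Thrombomodulin (THBD), an anticoagulant receptor, gave 9659, 32412 and 32018 (1.75). The lower member was F13A1, the transglutaminase that cross-links fibrin and a marker of tissue-repair macrophages, at 209, 78.5 and 96.2 (-1.42).

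Of 22 EGF receptor ligands and other growth factors, 8 were at least 2-fold higher and 2 lower. The EGF receptor ligand AREG gave 833, 8400.4 and 7718 (3.33), and HBEGF gave 1023, 7232 and 5509.9 (2.82). EREG, another ligand and the neighbor of AREG on chromosome 4, was at least 13.8-fold higher. VEGFA, which drives vessel growth, gave 534, 4378 and 2394 (3.04). INHBA, which forms activin A, gave 205, 4470.4 and 2418 (4.45). BMP6, of the same family, gave 107, 2455 and 1858 (4.52), while BMP2 (-1.20) and placental growth factor (PGF, -1.91) were lower. In Wnt and Notch signaling, 10 of 30 genes were at least 2-fold higher and 2 lower. These counts became 4 and 5 with spike-in scaling and 5 and 1 with normexp background correction. DLL1, a Notch ligand, gave 76.5, 638 and 375 (3.06). HES4, of the family of Notch targets, gave 997, 11458 and 9496 (3.52). RSPO3, a Wnt enhancer, differed by 3.05 and on a second probe by 5.30. CTGF, a matricellular protein, gave 20.6, 877 and 138 (5.41). TNFAIP6, which remodels hyaluronan, gave 52.9, 3576 and 3107, 67.6-fold higher with IMQ. Its log2 difference was 6.08 as normalized and 4.99 with normexp background correction, so the size of this fold depends on the correction.

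Surface molecules of activated antigen-presenting cells were at least 2-fold higher in 10 of 21 cases and lower in 2. LAMP3, a lysosomal protein of mature dendritic cells, gave 114, 1801 and 969 (3.98). The costimulators CD40, CD80, CD83 and CD86 gave differences of 1.87, 1.25, 2.05 and 2.13, and the adhesion molecule ICAM1 gave 3399, 15315 and 13988 (2.17). MARCH1, a ubiquitin ligase that removes MHC class II and CD86 from the surface, was at least 3.41-fold lower. The genes of MHC class II presentation were not higher with them, since none of 17 reached 2-fold and their median was -0.03. The integrin chain ITGB8, which activates latent TGF-β, was higher at 109, 718 and 337 (2.73), while ITGAL, the α chain of the leukocyte integrin LFA-1, was lower at 4978, 2214 and 2409 (-1.17). IL7R, a cytokine receptor chain, gave 197, 2570.0 and 1801 (3.70). CLDN5, a tight junction protein of endothelium, was at least 16.2-fold higher (18.7, 303 and 181), whereas VWF and CDH5, other endothelial markers, differed by -0.20 and -0.02.

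Oxidative phosphorylation and the basic machinery of the cell stayed within 2-fold, while glycolysis did not. None of 47 oxidative phosphorylation genes, 40 cytosolic ribosomal proteins, 38 ribosome biogenesis genes, 39 lysosomal genes or 18 housekeeping genes reached 2-fold in either direction. In the glycolysis and hypoxia list, 8 of 35 were at least 2-fold higher and 2 lower. HIF1A, the oxygen-sensitive factor, gave 1765, 5632 and 4264 (1.67). PFKFB3, an activator of glycolysis, gave 704, 1797 and 1551 (1.35). Hexokinase 2 (HK2) gave 2093, 4518 and 3526 (1.11). Hexokinase 3 (HK3) was at least 4.74-fold lower and the phosphofructokinase PFKP was lower at 16683, 6884 and 8400.4 (-1.28). The enzymes of serine synthesis were lower, PHGDH (-1.33) and PSAT1 (-1.67), while the stress genes DDIT4 (2.61), PPP1R15A (1.52) and SESN2 (1.45) in the same ATF4 list were higher.

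Smaller lists held single enzymes and regulators beyond 2-fold. In eicosanoid synthesis, whose median of 0.07 crossed that of all genes with normexp background correction, PTGS2, the inducible cyclooxygenase, gave 56.7, 424 and 164 (2.90). ALOX5, which opens the leukotriene branch, gave 8037, 2950.2 and 2495 (-1.45). The phospholipase PLA2G4A, which releases arachidonic acid for both, differed by -1.04. The other members of the list stayed within 2-fold. Of 22 matrix metalloproteinases and their inhibitors, 4 were at least 2-fold higher and 0 lower, MMP19 at 2045, 8326 and 7199 (2.03) being the highest. Of 19 factors of mRNA decay, 5 were higher and 0 lower. ZFP36, which binds the AU-rich elements of cytokine mRNAs, differed by 1.32. Among 22 apoptosis regulators, BCL2A1, a survival factor, was higher (1.05) and BIK, which promotes death, lower (-1.29). Complement, whose median crossed that of all genes with 75th percentile, spike-in or no scaling, held CFB, a protease of the alternative pathway, at 79, 27.9 and 32.7 (-1.50).

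Large families without a shared pathway were close to the middle. Of 304 solute carriers, 17 were at least 2-fold higher and 21 lower. Among the lower ones were SLC29A1 (-1.67), which carries nucleosides into the cell, and SLC27A3 (-1.89). SLC16A10, which carries aromatic amino acids, was higher on both of its probes (2.60 and 4.08). Of 480 zinc finger genes, 3 were higher and 13 lower, against a background of 4.3% and 4.61%. ZNF367, a transcription factor, differed by -2.30 and on a second probe by -1.74. Of 57 RAB GTPases, which route vesicles, RAB20 was the highest at 60.3, 317 and 231 (2.39). RGS18, a myeloid and platelet regulator of G protein signals, was lower at 242, 63.3 and 38.9 (-1.93), on the other side from RGS16. CTSC, the cathepsin that activates granule proteases, was lower at 15288, 5047 and 4349 (-1.60), and its other probes differed by -1.55 to -0.95. Of 698 antisense RNAs, 21 were higher and 15 lower, and of 588 long intergenic RNAs with a symbol, 17 and 14. BRE-AS1 was the highest of the antisense RNAs, at least 23.2-fold (10.7, 382 and 229). SLC7A11-AS1 differed by 2.95 on one probe and -0.29 on the other, so the second probe did not show the higher level of its partner SLC7A11.

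Some genes beyond 2-fold lie next to each other. Of 13215 pairs of adjacent compared genes whose probes lie within 100 kb (hg19), both were at least 2-fold higher in 53, both lower in 66 and opposite in 36. At least 1 gene was higher in 962 of these pairs and at least 1 lower in 1126, and of the single genes 4.30% were higher and 4.61% lower. Whether the pairs exceed what these shares give was not tested. Several pairs are paralogs, such as AREG with EREG, C5AR1 with C5AR2 and, on the lower side, FADS1 (-1.42) with FADS2 (-2.12), desaturases of long fatty acids. SLFN11 (-2.23), SLFN12 (-1.12) and SLFN13 (-2.16), a family of RNA-cutting proteins, lie in a row on chromosome 17. Opposite neighbors included CDC45 (-1.94) and CLDN5 on chromosome 22, MCM5 (-1.70) and HMOX1 (1.19) on the same chromosome, and MCM2 (-1.59) and TPRA1 (1.98) on chromosome 3. These pairs were named after their values were seen.

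The lists farthest from the all-gene median kept their side of it under the other settings, lists close to it did not, and the counts of genes did not hold. Before normalization the IMQ array was dimmer, with a median processed intensity of 54.4 against 83.6 on the Ctrl array. Of all genes at least 2-fold different, 53.8% were higher after the authors' normalization, 44.2% with 75th percentile scaling, 10.1% without normalization and 5.75% with spike-in scaling. Relative to the all-gene median, DNA replication lay at -1.46 (from -1.34 to -1.30 under the other 4 scalings and background corrections), mitosis at -1.14, cholesterol synthesis at -0.88 (-0.82 to -0.78) and the interferon-stimulated genes at -0.57 (-0.50 to -0.44). On the higher side, the NF-κB inhibitors lay at 1.06 (0.96 to 1.15), the coagulation list at 1.21 (0.87 to 1.34) and the immediate-early list at 1.33 (1.02 to 1.33). The lists that crossed the all-gene median between scalings were near it throughout, for instance the ribosomal proteins (-0.09, from -0.08 to 0.23), oxidative phosphorylation (-0.02, from -0.01 to 0.19) and the housekeeping genes (-0.03, from -0.03 to 0.22).

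**Figure D5:**
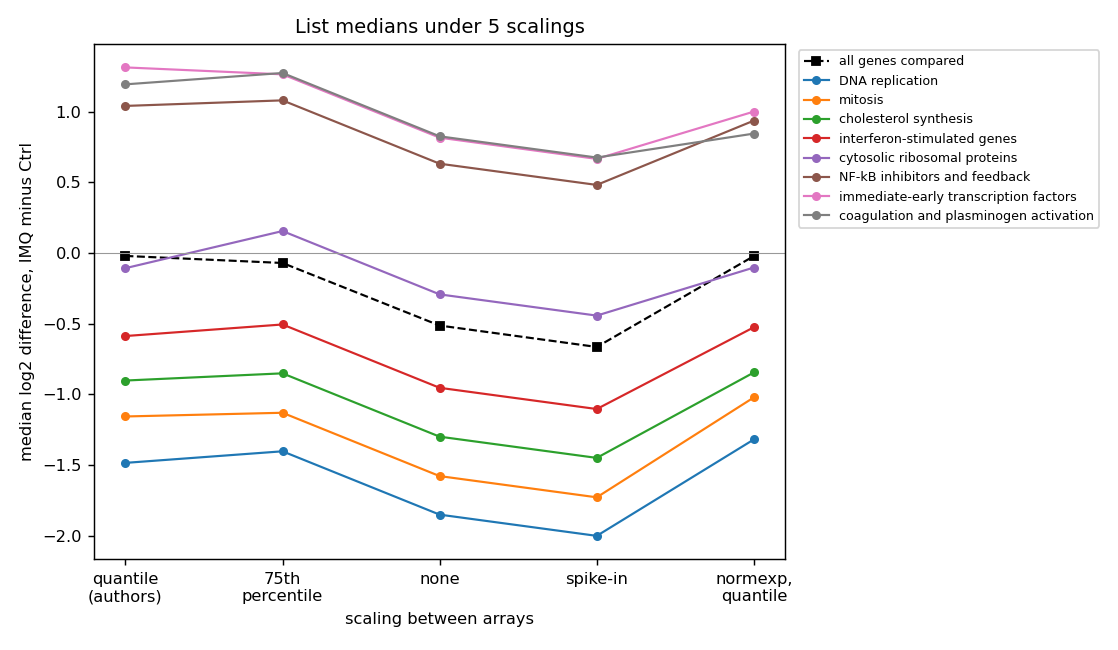
Median log2 difference (IMQ minus Ctrl) of 8 gene lists (circles) and of all genes compared (black squares) under 5 ways of scaling the arrays. Without normalization and with spike-in scaling every line lies lower together with the all-gene median (-0.51 and -0.66), and the replication, mitosis, cholesterol and interferon lists stay below it throughout.

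The third array stood close to the IMQ array for most lists. It is compared with the same Ctrl array, so both sets of differences share any error of that array. List medians of IMQ+X minus Ctrl were -1.52 for DNA replication (IMQ -1.49), -1.16 for mitosis (-1.16), -0.93 for cholesterol synthesis (-0.90), -0.52 for the interferon-stimulated genes (-0.59), 0.90 for the NF-κB inhibitors (1.04), 0.84 for coagulation (1.19) and 0.83 for the NRF2 targets (0.55). Single genes were further apart, such as CTGF, with 5.41 for IMQ and 2.74 for IMQ+X, and IDO1, with 5.47 and 4.10. With 1 array each, none of these distances can be set against a spread between cultures.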

How the data were processed

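The authors deposited 1 scanner file per array (Agilent Feature Extraction 10.5.1.1, Cy3, with hg19 probe coordinates) and a table of raw and quantile-normalized intensities, which were used as deposited. On the linear scale, the deposited raw intensity was within 0.1% of the scanner's for all 57901 probes with 1 spot. Intensities were converted to log2 here, joined on probe name, and subtracted, IMQ minus Ctrl. No spot was saturated (0 on each array). Of 58201 probes, 72.0% (Ctrl), 66.6% (IMQ) and 71.9% (IMQ+X) were well above background. Precision is limited by the array number. The comparison is descriptive, with no p-value.

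Members, 47 gene lists, 25 symbol families, 5 marker lists and motifs were chosen with earlier results of these data known. Genes were named as the 20 largest rises and falls well above background on both arrays, the 10 largest bounded rises and falls, and up to 6 largest or the brightest members of each list, other than cytokines, chemokines and GDAP1L1, and not all of them are printed. Genes beyond that rule were named to account for a list or after their values were seen. Symbols and promoters came from RefSeq tables. Alternatives were 75th percentile, spike-in or no scaling, normexp (offset 50), recomputed quantile normalization, other background filters, thresholds of 1.5-fold and 4-fold and other probe choices. The calculation was tested on simulated data. Python 3.11.15, pandas 2.3.3, numpy 2.4.6, matplotlib 3.10.9, R 4.3.3 and limma 3.58.1 were used. The enrichment results that the series text mentions were not used. A few list members are counted in their lists but not reported here by name.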

Additional observations from a re-analysis of the deposited data

How the results depend on the processing

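The 2-fold counts depended on the scaling and the filter. Without normalization, 579 genes were higher and 5155 lower, with spike-in scaling 465 and 7620, and with normexp background correction 609 and 608. With no filter on dim probes, 2701 were higher and 2823 lower. At 1.5-fold the counts were 3395 and 3392, and at 4-fold 289 and 112. The other alternatives stayed within 1.5 times of 1329 and 1143. Under each other scaling, probe choice and background setting, no named gene or list median that was at least 2-fold different changed sign. Of 575 named genes, 52 were no longer 2-fold different with normexp, 16 with the mean of the probes and 9 with 75th percentile scaling, and of 573 that could be compared, 40 without normalization and 56 with spike-in scaling. After each scaling's all-gene median was subtracted, between 1322 and 1333 genes were higher and between 1239 and 1254 lower. Signals near background limit the dim genes, whose folds are bounds. No paired analysis was possible because each condition had 1 array.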
